A study of Mus musculus with 11 samples.

Results

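The 5 genes for small noncoding RNAs, Rn7sk, Rmrp, Rpph1, Terc and Gm26447, were followed through RNA-seq libraries of sorted mouse B cells. They were chosen by symbol, selected on their abundance in these same libraries, and all 5 were found by Ensembl identifier among the 48795 genes of the table. Their levels are therefore a description. The unit is TPM, in which the reads estimated for a gene are set against its length and every library is scaled to the same total. The study asked what the complex of the transcription factors MYC and MIZ1 does in germinal center (GC) B cells. Light zone (LZ) GC B cells came from 4 Myc WT mice, here mice 1 to 4, and from 4 mice with Myc V394D, mice 5 to 8, whose endogenous Myc gene carries aspartic acid in place of a valine, a change that abolishes the binding of MYC to MIZ1. Memory B cells (MBCs) came from the spleens of Myc WT mice 1, 3 and 4. All were female, 8 to 12 weeks of age, and were taken at day 10 after intravenous sheep red blood cells. LZ cells were gated as B220+ CD138neg IgDneg CD38neg Fas+ CD86high CXCR4low, and MBCs as B220+ CD138neg IgDneg CD38+ CD273+. The mutation is in all cells of the mouse, not only in B cells. In their labels Myc WT mice 1 to 3 share a name prefix, mouse 4 has another, and all Myc V394D mice have yet another, so genotype and whatever the prefix marks cannot be told apart.

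These RNAs work as parts of ribonucleoproteins. 7SK RNA, the product of Rn7sk, holds the elongation kinase P-TEFb in an inactive particle with HEXIM and LARP7. Rmrp and Rpph1 are the RNA subunits of RNase MRP and RNase P, related endonucleases that process precursors of ribosomal RNA and of transfer RNA and share most of their proteins. Terc is the template RNA of telomerase, which is active in GC B cells. RNA polymerase III makes the first 3 of these RNAs, and RNA polymerase II makes Terc. Gm26447 is annotated as a small nucleolar RNA (snoRNA), a class whose members are mostly cut from introns and guide chemical modification of other RNAs.

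The 5 genes differed in level, spread and completeness. Rmrp and Rpph1 were above 0 in all 11 libraries. Terc was above 0 in all 8 LZ libraries and listed at 0 in 2 of 3 MBC libraries. Rn7sk was listed at 0 in 4 libraries, and Gm26447 in 5. Of the 3527 snRNA, snoRNA, scaRNA, misc_RNA and ribozyme genes in the table, 321 were above 0 in any library, 59 averaged 10 TPM or more, and only 7 of those 59 were above 0 in all 11. By mean level among the 3527, Rn7sk ranked 2, Gm26447 ranked 4, Rmrp ranked 6, Rpph1 ranked 20 and Terc ranked 35, so the members are not simply the 5 highest. The highest was Gm27927, at a mean of 536 TPM. Gm25106, of rank 3, was at 78.4 TPM, and Gm25776, of rank 5, was at 39.97 TPM. The signal recognition particle RNA genes Rn7s1 and Rn7s2 had the same value in 10 of 11 libraries, and Rn7s1 was listed at 0 in the other. Rny1, Rny3 and Vaultrc5 were listed at 0 in all.

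**Figure D1:**
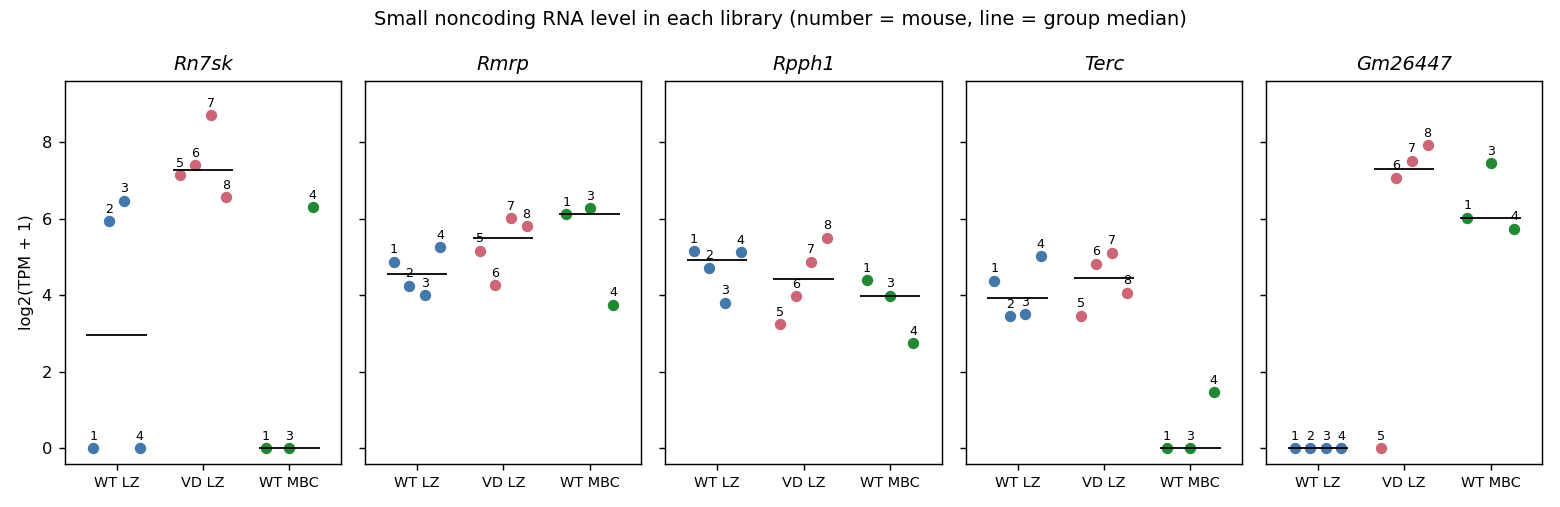
Level of each of the 5 genes as log2(TPM + 1), with a point for each library, the number of the mouse above it and a line at the group median. Rn7sk is listed at 0 in 2 Myc WT LZ libraries and above 90 TPM in all 4 Myc V394D libraries, Terc is close to 0 in the 3 MBC libraries, and Gm26447 is at 0 in the 4 Myc WT LZ libraries and in mouse 5.

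Across the series, the summed sorting markers ran with the labels. The summed level of 6 GC markers was 671 to 1145 TPM in Myc WT LZ, 662 to 1123 TPM in Myc V394D LZ and 152 to 262 TPM in MBCs, while 5 memory markers summed to 502 to 790 TPM in MBCs and at most 35.4 TPM in LZ, although 1 of the 5, Nt5e, was not higher in MBCs (means of 9.23 TPM in MBCs and 11.5 TPM in Myc WT LZ). Genes above 0 numbered 15460 to 19537 in Myc WT LZ, 13169 to 16421 in Myc V394D LZ and 11527 to 16040 in MBCs. Hemoglobin and other erythroid markers, 5 genes, summed to 4769 TPM in the MBC library of mouse 3 but 6.21 and 37.4 TPM in those of mice 1 and 4. In LZ they summed to 104 to 210 TPM in Myc WT and 65.0 to 340 TPM in Myc V394D. The 5 myeloid markers summed to 16.1 to 163 TPM in MBCs, highest in mouse 4, and at most 12.4 TPM in LZ, with Cd14 at 0 in every LZ library. The 5 T cell markers summed to at most 13.4 TPM in any library. The 5 plasma cell markers summed to 229 to 381 TPM in Myc WT LZ, 134 to 221 TPM in Myc V394D LZ and 193 to 402 TPM in MBCs. Between genotypes the sum did not overlap and neither did Jchain, its most abundant gene and the joining chain of secreted antibodies, while Xbp1, Irf4, Prdm1 and Sdc1 did. Of these 5, 4 were tested and none passed between genotypes, with Jchain at means of 232 TPM in Myc WT LZ and 109 TPM in Myc V394D LZ (limma adjusted p = 0.122). The part of other cell types in the results on small RNAs was not tested. As in all bulk samples, fewer cells of a type and less RNA per cell cannot be told apart.

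The ribosomal RNA share, given here because TPM are shares of a fixed total, was large. Ribosomal RNA genes took 42.1%, 39.9%, 35.7% and 44.5% of the TPM in Myc WT LZ mice 1 to 4, a mean of 40.6% ± 3.75 (SD, n = 4). In Myc V394D LZ mice 5 to 8 they took 44.1%, 49.8%, 52.1% and 61.3%, a mean of 51.8% ± 7.17 (SD, n = 4). In the MBC libraries of mice 1, 3 and 4 they took 37.2%, 37.5% and 36.1%, a mean of 36.9% ± 0.731 (SD, n = 3). Myc V394D was thus higher than Myc WT by 11.3 percentage points with 1 overlapping library, mouse 5, which lay below Myc WT mouse 4 (exact permutation test, two-sided, p = 0.0571). For MBCs against Myc WT LZ the difference was -3.62 percentage points, within the spread (exact permutation p = 0.229), and it ran from -5.24 without the LZ library of mouse 3 to -2.30 without that of mouse 4.

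The 2 sources of ribosomal RNA differed in opposite directions between LZ and MBCs. Nuclear ribosomal RNA was 19.2% ± 1.84 (SD, n = 4) of the TPM in Myc WT LZ, 24.6% ± 2.73 (SD, n = 4) in Myc V394D LZ and 8.12% ± 0.990 (SD, n = 3) in MBCs. Mitochondrial ribosomal RNA was 21.3% ± 2.44 (SD, n = 4), 27.3% ± 5.10 (SD, n = 4) and 28.8% ± 1.67 (SD, n = 3). For MBCs against Myc WT LZ neither share overlapped between the groups, and each exact permutation test gave p = 0.0571, the smallest that 3 libraries against 4 allow, so this design cannot reach 0.05 for a single value. For 4 against 4 the smallest is 0.0286.

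**Figure D2:**
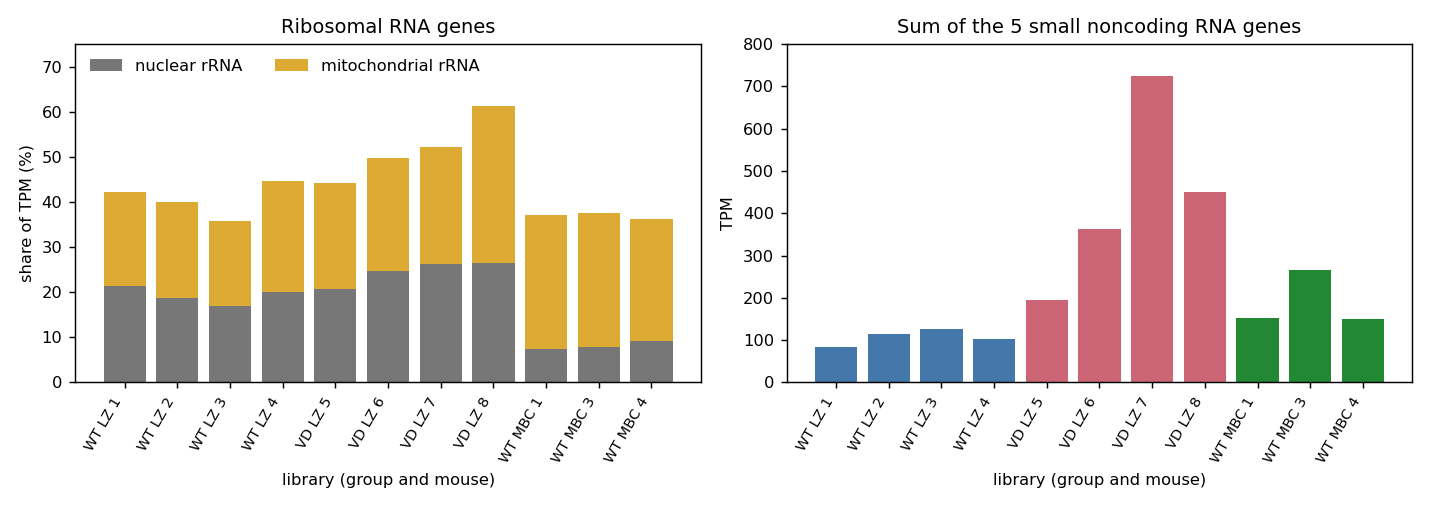
Left, share of the TPM (%) taken by nuclear and mitochondrial ribosomal RNA genes in each library. Right, summed TPM of the 5 small noncoding RNA genes, which is 82.9 to 126 in Myc WT LZ, 194 to 724 in Myc V394D LZ and 150.4 to 267 in MBCs.

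Together the 5 genes held little of each library, 0.00829% to 0.0724% of the TPM. The LZ of Myc V394D mice exceeded that of Myc WT mice in this sum without overlap, and most of the sum there was Rn7sk and Gm26447, which are the members with values at 0 in LZ. The 2 comparisons below, Myc V394D LZ against Myc WT LZ and Myc WT MBC against Myc WT LZ, share the 4 Myc WT LZ libraries. Differences are in log2(TPM + 1) and were fitted with limma over all genes whose mean was 1 TPM or more. Between genotypes, 6 of 12869 genes passed an adjusted p of 0.05 (0.0466%) and the groups did not overlap for 9.98% of genes. The median difference of all genes was -0.31. Between MBCs and LZ, 1219 of 13245 genes passed (9.2%), the groups did not overlap for 26.2%, and the median difference was -0.14. With mouse as a replicate block, since 3 mice gave both cell types, 248 genes passed.

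Gm26447 passed the filter on low values only through the groups in which it was above 0, and between MBCs and LZ Terc passed it only through its LZ levels. These differences are given below as a description with no test. None of the other 4 members passed the adjusted threshold between genotypes. Rn7sk had an unadjusted p under 0.05, as 16.9% of all genes had. Between MBCs and LZ, Rn7sk, Rmrp and Rpph1 did not pass the test.

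**Figure D3:**
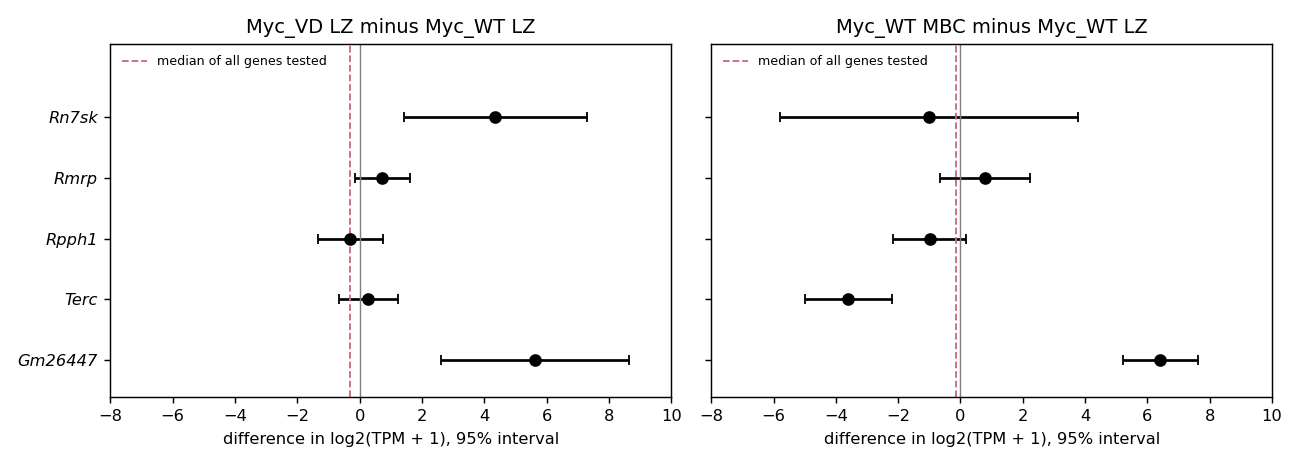
Fitted difference in log2(TPM + 1) with its 95% interval for each gene, Myc V394D minus Myc WT LZ on the left and MBC minus Myc WT LZ on the right, with the median of all genes tested as a dashed line. On the right the intervals of Rn7sk, Rmrp and Rpph1 span 0. Terc (-3.60) on the right and Gm26447 on both sides are drawn as a description, and their place depends on the pseudocount. Their intervals are not read as a test, since there these genes passed the filter only through the group in which they were high.

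Rn7sk (ENSMUSG00000065037, chr9:78175303-78175633, minus strand of GRCm38, 331 bases, annotated misc_RNA) was the most abundant member in Myc V394D mice 5, 6 and 7, and second to Gm26447 in mouse 8. The start of its RNA is shown because it holds the GATC repeats at which HEXIM is known to bind, in capitals (chr9:78175514-78175633, GENCODE M21, with T for U).
Rn7sk, bases 1 to 120: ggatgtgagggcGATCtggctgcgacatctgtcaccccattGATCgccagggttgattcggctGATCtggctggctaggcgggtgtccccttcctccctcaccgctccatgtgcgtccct
GATC occurred 3 times on the RNA strand of this stretch. Of 1763 annotated small noncoding transcripts with at least 120 bases, 1.82% held it as often in their first 120.

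In Myc WT LZ, Rn7sk was listed at 0 in mouse 1, 60.44 TPM in mouse 2, 87.6 TPM in mouse 3 and 0 in mouse 4. In Myc V394D LZ it was 140.73 TPM in mouse 5, 168.88 in mouse 6, 415.0 in mouse 7 and 93.57 in mouse 8. In MBCs it was listed at 0 in mice 1 and 3 and at 77.87 TPM in mouse 4. All Myc V394D libraries were above all Myc WT libraries, the closest pair being Myc V394D mouse 8 and Myc WT mouse 3. Where it was above 0 it stood high, above at least 91.0% of the genes above 0 in its library. The fitted genotype difference was 4.35 (SE 1.34, 95% interval 1.42 to 7.29), against the all-gene median of -0.31, with a limma adjusted p of 0.156. The exact permutation p was 0.0286, the smallest that 4 against 4 can give. The MBC difference was -1.002 with an interval of -5.78 to 3.78 (limma adjusted p = 0.801), and its sign turned with single libraries.

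The size of the Rn7sk difference between genotypes varied with the settings. It was 6.01 with a pseudocount of 0.1, and 5.07 with ribosomal RNA removed and the rest rescaled. Leaving out Myc WT mouse 1 alone or mouse 4 alone, in which Rn7sk was listed at 0, gave 3.32 each time. In Myc WT mice 2 and 3 the log2(TPM + 1) was 5.94 and 6.47, against a mean of 7.45 in Myc V394D. The size of the difference thus depends on the values at 0 and on the pseudocount. Rn7sk is also a gene with many copies. Its sequence matched 184 annotated genes, and 22 of them were at least 85% identical over at least 30% of its length. Of these 22, 11 were above 0 in some library. The nearest, Gm24447, is 100% identical over 241 bases and reached 18.66 TPM. The copies summed to 11.1 to 14.9 TPM in Myc WT LZ, 13.4 to 28.1 TPM in Myc V394D LZ and 12.7 to 26.4 TPM in MBCs. They were thus above 0 in the Myc WT libraries of mice 1 and 4, in which Rn7sk itself was listed at 0. Reads that fit both can be split between them by the quantification. With the copies added to Rn7sk, an alternative chosen after seeing the data, the genotype difference fell to 2.54 (SE 0.652, limma adjusted p = 0.124) and the MBC difference was -0.28.

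The partners of 7SK RNA were read against all genes, of which 0.0466% passed between genotypes and 9.2% between cell types, with medians of -0.31 and -0.14. Of 11 genes of the 7SK particle and P-TEFb, 10 were tested, and none passed between genotypes (median -0.29) or between cell types (median 0.17). Larp7, which binds the end of 7SK RNA, had a mean of 62.2 TPM in Myc V394D LZ, 74.8 TPM in Myc WT LZ and 33.4 TPM in MBCs. Mepce, the enzyme that caps 7SK RNA, had means of 5.60, 11.6 and 18.1 TPM in the same order. Of 31 genes of RNA polymerase III and its factors, none passed in either comparison, with medians of -0.30 and 0.01, beside the same shares and medians of all genes.

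Rmrp (ENSMUSG00000088088, chr4:43492788-43493058, minus strand, 271 bases, annotated ribozyme) was above 0 in all libraries. It is shown whole. The capitals mark the 124 bases, from base 36 to base 159, that lie opposite an exon of the coding gene Ccdc107, transcribed from the other strand.
Rmrp: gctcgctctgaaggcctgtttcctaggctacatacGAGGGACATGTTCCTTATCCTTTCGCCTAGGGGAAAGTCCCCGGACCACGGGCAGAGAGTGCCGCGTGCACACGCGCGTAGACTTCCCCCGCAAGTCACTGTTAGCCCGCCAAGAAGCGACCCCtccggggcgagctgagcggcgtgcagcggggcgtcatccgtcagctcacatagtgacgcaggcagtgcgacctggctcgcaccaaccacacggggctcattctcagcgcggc
The authors quantified with a strand-specific setting. Ccdc107 was 1.82 to 9.15 TPM in Myc WT LZ, 0.73 to 8.93 TPM in Myc V394D LZ and 11.7 to 24.5 TPM in MBCs. No other annotated gene had a match to Rmrp.

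Rmrp was 28.36, 18.09, 15.01 and 37.13 TPM in Myc WT LZ mice 1 to 4, a mean of 24.6 ± 10.1 (SD, n = 4). It was 34.89, 18.2, 64.02 and 55.1 TPM in Myc V394D LZ mice 5 to 8, a mean of 43.1 ± 20.6 (SD, n = 4). In MBCs it was 68.61 TPM in mouse 1, 76.96 in mouse 3 and 12.49 in mouse 4, a mean of 52.7 ± 35.1 (SD, n = 3). In Myc V394D, mice 7 and 8 were above every Myc WT LZ library and mice 5 and 6 were within their range. In MBCs, mice 1 and 3 were above every Myc WT LZ library, and mouse 4 was below all of them. The genotype difference was 0.72 (SE 0.403, interval -0.16 to 1.60, limma adjusted p = 0.389).

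The Rmrp difference between MBCs and LZ varied with single libraries. Over all libraries it was 0.79 (SE 0.632, limma adjusted p = 0.460). Without the MBC library of mouse 1 it was 0.42, and without that of mouse 3 it was 0.34. Without the MBC library of mouse 4 it was 1.61 (SE 0.414, limma adjusted p = 0.0354), where 2754 of 13093 genes passed (21%). Among mice 1 to 3, which share a name prefix, it was 1.83 (SE 0.381, limma adjusted p = 0.0401), where 11.3% of all genes passed. That fit holds the MBC libraries of mice 1 and 3 only, so it leaves out the MBC library of mouse 4 as well. The MBC library of mouse 4 was also the only one of its group with Rn7sk above 0, and it had the lowest Rpph1 of the series.

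Rpph1 (ENSMUSG00000092837, chr14:50807449-50807767, minus strand, 319 bases, annotated ribozyme) overlaps Ccnb1ip1 on the same strand. Its first 95 bases are shown (chr14:50807673-50807767), with capitals from the base at which the run shared with an exon of Ccnb1ip1 begins.
Rpph1, bases 1 to 95: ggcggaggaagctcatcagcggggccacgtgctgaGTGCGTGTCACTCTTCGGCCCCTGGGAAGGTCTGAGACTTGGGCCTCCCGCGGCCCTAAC
The shared run was 233 of the 319 bases, from base 36 to base 268. Ccnb1ip1 was listed at 0 in all 11 libraries, so the table gave all signal at this place to Rpph1. Both near copies of Rpph1, at 85% identity or more, were listed at 0 throughout.

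Rpph1 was 34.76, 25.42, 12.97 and 33.96 TPM in Myc WT LZ mice 1 to 4, a mean of 26.8 ± 10.1 (SD, n = 4). It was 8.54, 14.8, 28.42 and 44.64 TPM in Myc V394D LZ mice 5 to 8, a mean of 24.1 ± 16.0 (SD, n = 4). In MBCs it was 20.13, 14.89 and 5.74 TPM in mice 1, 3 and 4, a mean of 13.6 ± 7.28 (SD, n = 3). The Myc V394D libraries spanned the whole Myc WT range, with mouse 5 the lowest of the LZ libraries and mouse 8 the highest. Of the MBC libraries, those of mice 1 and 3 lay in the Myc WT LZ range and that of mouse 4 below it. The genotype difference was -0.30 (SE 0.472, interval -1.33 to 0.74, limma adjusted p = 0.781), close to the all-gene median of -0.31, and it was 0.03 under median ratio scaling. The MBC difference was -0.99 (SE 0.518, interval -2.16 to 0.19, limma adjusted p = 0.258). It was -0.51 without the MBC library of mouse 4 and -0.37 within mice 1 to 3.

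Rmrp and Rpph1, whose RNAs sit in sister enzymes, can be set against each other within a library, where the scaling cancels. The ratio of Rmrp to Rpph1 was 0.816, 0.712, 1.16 and 1.09 in Myc WT LZ mice 1 to 4. It was 4.09, 1.23, 2.25 and 1.23 in Myc V394D LZ mice 5 to 8, and 3.41, 5.17 and 2.18 in the MBCs of mice 1, 3 and 4. Every Myc V394D and every MBC library was above every Myc WT LZ library. The closest were Myc V394D mice 6 and 8, at 1.23, and Myc WT mouse 3, at 1.16. Of single genes, 9.98% did not overlap between genotypes and 26.2% between MBCs and LZ. The share over pairs of genes was not computed. The mean log2 ratio of TPM + 1 was higher by 1.02 in Myc V394D (exact permutation p = 0.0286) and by 1.78 in MBCs (exact permutation p = 0.0571, the smallest possible). With the pairs left out that hold a member for which no test is read, the adjusted permutation p was 0.171 over 6 pairs between genotypes and 0.171 over 3 pairs between cell types, and none of these pairs passed. The MBC library of mouse 4 was above the Myc WT LZ libraries in this ratio, although below them in its Rmrp level.

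The proteins of RNase MRP and RNase P had mostly negative differences. Of 11 listed, 10 were tested. Between genotypes the median difference was -0.86, against -0.31 for all genes, with 9 of 10 below 0 and none past the adjusted threshold. Between MBCs and LZ the median was -1.40, against -0.14, with 8 of 10 below 0. Of the 10 only Rpp30, a subunit of both enzymes, passed, where 9.2% of all genes did. Rpp30 had means of 20.2 TPM in Myc WT LZ, 11.1 in Myc V394D LZ and 2.66 in MBCs (MBC difference of -3.13, SE 0.739, limma adjusted p = 0.0336). Of the RNA subunits, Rmrp had positive differences in both comparisons and Rpph1 negative ones, none past the test, although the genotype difference of Rpph1 was 0.03 under median ratio scaling.

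Terc (ENSMUSG00000064796, chr3:96414437-96414859, minus strand, 423 bases, annotated misc_RNA) was listed at or near 0 in the MBC libraries. The start of the RNA is shown with the template, which is complementary to the telomere repeat, in capitals (chr3:96414740-96414859).
Terc, bases 1 to 120: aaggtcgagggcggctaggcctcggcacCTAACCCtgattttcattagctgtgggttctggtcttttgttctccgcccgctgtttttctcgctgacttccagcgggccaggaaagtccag
CTAACCC begins at base 29 and occurred once in this stretch, and 0.737% of the 1763 small noncoding transcripts held these letters in their first 120 bases. No copy of Terc passed the 85% identity criterion.

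Terc was 19.8, 9.93, 10.4 and 31.44 TPM in Myc WT LZ mice 1 to 4, a mean of 17.9 ± 10.1 (SD, n = 4). It was 10.09, 27.49, 33.61 and 15.79 TPM in Myc V394D LZ mice 5 to 8, a mean of 21.7 ± 10.7 (SD, n = 4). In MBCs it was listed at 0 in mice 1 and 3 and at 1.78 TPM in mouse 4. The LZ groups overlapped almost fully, and each MBC library was below each LZ library. Within the mice that gave both cell types, Terc was 19.8 TPM in LZ and listed at 0 in MBCs of mouse 1, 10.4 TPM and 0 in mouse 3, and 31.44 TPM and 1.78 TPM in mouse 4.

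The genotype difference of Terc was 0.28 (SE 0.440, interval -0.68 to 1.24, limma adjusted p = 0.775). As a description, the MBC difference was -3.60, it was -3.81 with mouse as a replicate block, and it was -5.91 with a pseudocount of 0.1, so its size depends on that choice. In the MBC libraries of mice 1 and 3, Rn7sk was at 0 as well, and a value of 0 in this table does not show that an RNA was absent. Other genes of this length also had more zeros in the MBC libraries. Of 211 genes with a longest transcript of over 300 and up to 450 bases that averaged 10 TPM or more, 16.6% of the MBC values were listed at 0, against 1.18% in Myc WT LZ and 3.20% in Myc V394D LZ. Of 4575 genes with at least 9 TPM in all 8 LZ libraries, 9 had at most 2 TPM in all 3 MBC libraries, with both limits taken after seeing the values of Terc. The part of transcript length in the MBC values of Terc was not tested.

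**Figure D4:**
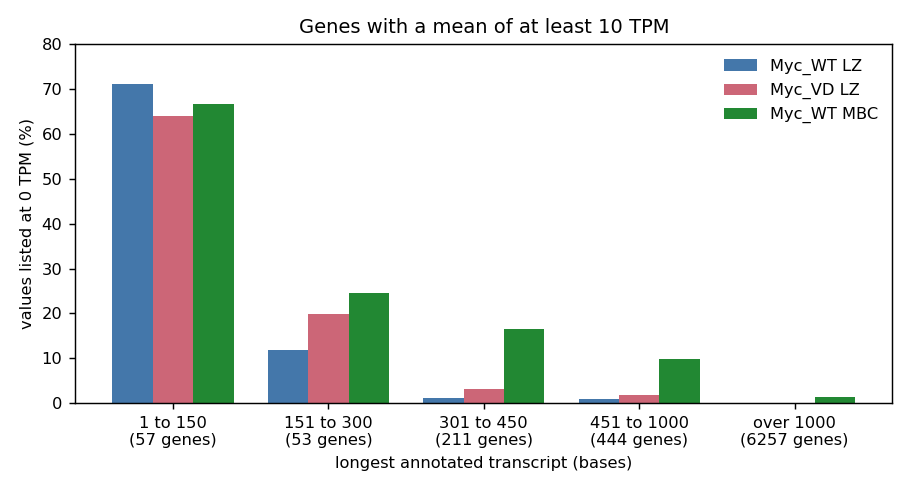
Share of values listed at 0 TPM (%) among genes that averaged 10 TPM or more, by length of the longest annotated transcript and by group. Zeros make up 64.0% to 71.1% of the values for the 57 genes of up to 150 bases and at most 1.37% for the 6257 genes over 1000 bases, and between these the MBC libraries have the most.

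No protein gene of telomerase passed the test in either comparison. Of 11 listed, 10 were tested between genotypes and 11 between cell types, with medians of -0.26 and -0.55, against -0.31 and -0.14 for all genes, of which 0.0466% and 9.2% passed. Dkc1, the dyskerin that binds the snoRNA-like end of Terc, had means of 86.1 TPM in Myc WT LZ, 75.1 in Myc V394D LZ and 60.6 in MBCs. Tert, the reverse transcriptase, had a mean of 0.485 TPM in Myc WT LZ and 1.79 TPM in MBCs, and passed the filter only through the latter, so no test is read. The genes whose levels were most like those of Terc over the 11 libraries were Hist1h2ac (r = 0.964), Gm37328 (r = 0.964) and Hist1h2ae (r = 0.959), among the 7028 genes that averaged 10 TPM or more. These correlations share 8 LZ and 3 MBC libraries and are given as a description. Mki67, a gene of dividing cells, is also among the 6 GC markers summed above. It was 417 TPM in Myc WT LZ and 92.2 TPM in MBCs on average (difference of -2.11, limma adjusted p = 0.00582). Its link to the level of Terc was not tested.

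Gm26447 (ENSMUSG00000064382, chr16:23111301-23111429, plus strand, 129 bases, annotated snoRNA) had the most discontinuous levels. It lies whole within an intron of the translation factor gene Eif4a2 on the same strand, and 2 retained-intron transcripts of Eif4a2 contain all 129 bases. It is shown whole, with the ACA near its end in capitals.
Gm26447: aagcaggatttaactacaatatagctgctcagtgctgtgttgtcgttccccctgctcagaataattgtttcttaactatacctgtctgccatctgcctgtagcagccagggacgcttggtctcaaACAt
ACA close to the end is typical of the H/ACA class of snoRNAs, and 45.8% of the 1507 annotated snoRNA transcripts had it in their last 6 bases. TGATGA, the letters of the C box of the other class, was not in this sequence and was in 26.1% of them. Both were searched on the RNA strand.

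Gm26447 was listed at 0 in all 4 Myc WT LZ libraries. In Myc V394D LZ it was listed at 0 in mouse 5, and at 134.2 TPM in mouse 6, 182.5 in mouse 7 and 241.42 in mouse 8. In MBCs it was 64.22 TPM in mouse 1, 174.79 in mouse 3 and 52.55 in mouse 4. In mice 1, 3 and 4 it was thus listed above 0 in the MBC library and at 0 in the LZ library. The Myc V394D group overlapped Myc WT through mouse 5 alone. Mice 6, 7 and 8 were also the LZ libraries with the highest ribosomal RNA shares, 49.8% to 61.3%, and mouse 5 was within the Myc WT range of 35.7% to 44.5%. The MBC libraries, in which Gm26447 was above 0, had shares of 36.1% to 37.5%. The mitochondrial part was 18.7% to 24.6% in Myc WT LZ, 23.5% in mouse 5, 25.0% to 34.8% in mice 6, 7 and 8, and 26.9% to 29.8% in MBCs. The nuclear part was 17.0% to 21.3% in Myc WT LZ and 7.32% to 9.23% in MBCs. A link of Gm26447 to these shares was not tested.

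No fold is given against a group at 0. On the log scale the difference of Gm26447 from Myc WT LZ was 5.63 in Myc V394D and 6.41 in MBCs, and with a pseudocount of 0.1 in place of 1 these became 8.12 and 9.71, so their size is set by that choice. Without the MBC library of mouse 3, the one with the high erythroid markers, the MBC difference was 5.89. Among all genes, 17 were at 0 in the 4 Myc WT LZ libraries and above 0 in the 3 MBC libraries, and Gm26447 was the only 1 of these with at least 50 TPM in each, a limit taken after its values were seen.

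The host gene and the other snoRNAs of Eif4a2 had other patterns than Gm26447. Eif4a2 was 385 to 650 TPM in Myc WT LZ, 353 to 522 TPM in Myc V394D LZ and 693 to 720 TPM in MBCs. The MBC libraries were thus above all LZ libraries, and the genotypes overlapped. Of the 4 other snoRNAs within Eif4a2, Snord2 was at 0 in all libraries. Snora81 was above 0 in 3 of 4 Myc WT LZ libraries (up to 20.1 TPM), at 0 in all Myc V394D libraries and at 7.67 TPM in 1 MBC library. Gm24201 was above 0 in 2 libraries, up to 103.5 TPM, and Gm24616 in 3, up to 33.9 TPM. For 57 genes of up to 150 bases that averaged 10 TPM or more, 71.1% of values were listed at 0 in Myc WT LZ, 64.0% in Myc V394D LZ and 66.7% in MBCs, and all 57 were at 0 in at least 1 library. Zeros are thus the rule at the length of Gm26447. The part of transcript length, and of reads split with the retained introns of Eif4a2, in its values was not tested.

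Other small noncoding RNA genes gave the background for the members. Between genotypes, 231 of the 3527 were tested and none passed, where an unadjusted p under 0.05 was found for 13 that were higher and 11 that were lower, which is 10.4% of them against 16.9% of all genes. The median difference was 0.08, against -0.31 for all genes. Between MBCs and LZ, 224 were tested, 2 passed as higher and 7 as lower, which is 4.02% of them against 9.2% of all genes. The median difference was -0.44, against -0.14 for all genes. These counts include Gm26447 and Terc, for which no test is read. Rn7s2 was 15.4 to 56.0 TPM in Myc WT LZ, 33.2 to 95.3 TPM in Myc V394D LZ and 6.20 to 31.0 TPM in MBCs (genotype difference of 0.81, SE 0.426, limma adjusted p = 0.361). Rn7s1, listed at 0 in a Myc WT LZ library, had a genotype difference of 2.08 (SE 0.958, limma adjusted p = 0.297). Of 8 protein genes of the signal recognition particle 7 were tested. None passed between genotypes (median -0.46), and between cell types (median -0.15) only Srp54a of the 7 did, where 9.2% of all genes passed. It is a gene with close copies whose reads may be split (means of 15.7 TPM in Myc WT LZ and 1.94 TPM in MBCs, limma adjusted p = 0.0341).

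The order of the members differed between groups. In Myc WT LZ, Rpph1 (26.8 TPM), Rmrp (24.6 TPM) and Terc (17.9 TPM) followed each other within their spread, with Rn7sk above them where it was detected and Gm26447 at 0. In Myc V394D LZ, Rn7sk and, outside mouse 5, Gm26447 were above Rmrp in every library, and Rmrp was above Rpph1 in all 4. In MBCs the order was Rmrp or Gm26447, then Rpph1, then Terc, with Rmrp above Gm26447 in mouse 1 and below it in mice 3 and 4, and with Rn7sk above both in mouse 4 alone. Over the 11 libraries the members did not run together. The correlation of log2 levels between pairs ranged from -0.380 (Rn7sk and Rmrp) to 0.453 (Rmrp and Rpph1), as a description. The genes most like Rn7sk were Unc45a (r = 0.807), mt-Nd3 (r = 0.804) and Hip1r (r = 0.788). Those most like Rmrp were Gm37472 (r = 0.803), Hivep3 (r = 0.771) and Osbpl7 (r = 0.765). Those most like Rpph1 were Aup1 (r = 0.783), Gm47315 (r = 0.685) and Scai (r = 0.684), and those most like Gm26447 were mt-Atp6 (r = 0.879), mt-Co2 (r = 0.863) and Gm37033 (r = 0.831).

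Removing ribosomal RNA genes and rescaling each library raised the members most where that share was highest. Rmrp then was 49.0, 30.1, 23.3 and 66.9 TPM in Myc WT LZ, 62.4, 36.2, 134 and 142 TPM in Myc V394D LZ, and 109, 123 and 19.6 TPM in MBCs. The genotype difference of Rmrp became 1.04 (SE 0.454), that of Rpph1 -6.74e-05, that of Terc 0.59 (SE 0.479) and that of Gm26447 6.48, and of Rn7sk, Rmrp, Rpph1 and Terc none passed the adjusted threshold. The MBC differences became -4.17 for Terc and 7.07 for Gm26447, as a description.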

How the data were processed

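RNA was sequenced from sorted spleen B cells, in libraries made with a NuGEN cDNA kit from total RNA. The authors mapped reads to GRCm38 with STAR 2.5.2a and estimated the level of each Ensembl gene with RSEM 1.3.0, run as strand-specific. The deposited values are TPM with 2 decimals. RSEM divides by the positions a fragment can take on a transcript, so short transcripts have few. The read depth, the size selection and whether ribosomal RNA was depleted are not given in the sources used here, so depth is unknown and the error is that between mice. The labels also name DESeq2 1.18.1, whose results were not used.

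Members and gene lists were chosen with earlier results of these data known. All 11 columns were mapped to a sample by their labels, and 0 columns were left unused. Symbols, biotypes and positions came from GENCODE M21 (48435 of 48795 genes matched). The ribosomal RNA share is the sum over 356 genes of the biotypes rRNA and Mt_rRNA. The tests across genes used limma 3.58.1 (R 4.3.3, eBayes with trend) on log2(TPM + 1), where the mean was 1 TPM or more, with 2 groups per fit, two-sided with Benjamini-Hochberg adjustment at 0.05. The script was tested on simulated data. Single values and ratios were tested by exact permutation over libraries (scipy 1.17.1). Copies were found with blastn 2.17.0. Fold changes on this scale understate those of low genes. No test is read for a member that passed the filter only through the group in which it was high (Gm26447, and Terc between cell types).

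MBC and LZ libraries of mice 1, 3 and 4 came from the same animals by their labels, so mouse was added as a block in an alternative. The deviations of paired libraries from their group means correlated with r = 0.00507, 0.0115 and -0.0470 over 13245 genes. Named were all members, partner genes past the adjusted threshold and defining genes of a list, the other small RNA genes among the 5 highest or fixed by name, and the 3 genes most like each member. Neighbouring genes were added after values were seen, as was the reading of Mki67, a listed GC marker, beside Terc. Alternatives were the pseudocount (0.1), the filter (none, or 5 TPM), scaling (no ribosomal RNA, median ratio, quantile), no trend, all groups in 1 fit, leaving out each library, mouse as a block, mice 1 to 3 only and, chosen after seeing the data, copies summed and ribosomal RNA removed with 3 lincRNA genes.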

Additional observations from a re-analysis of the deposited data

How the results depend on the processing

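Between genotypes the count of 6 genes became 0 with a pseudocount of 0.1, 0 with no filter, 15 with a minimum mean of 5 TPM, 1 with ribosomal RNA removed, 1 with 3 lincRNA genes also removed (chosen after seeing the data), 0 under median ratio scaling and 0 with all 3 groups in 1 fit. It ran from 0 to 254 when each library was left out, with 254 without mouse 5. Rpph1 reversed to 0.034 under median ratio scaling and to 0.087 without mouse 5 (leave-one-out range -0.67 to 0.087), and Gm26447, a value with no test against a group at 0, was 4.87 to 7.51, highest without mouse 5. Rn7sk, Rmrp and Terc kept their direction and their side of the threshold under the 10 other settings (2.54 to 6.01, 0.72 to 1.05 and 0.28 to 0.61) and with each library left out (3.32 to 5.47, 0.48 to 1.07 and 0.03 to 0.59). The count between MBCs and LZ, 1219, became 608 with no filter and 248 with mouse as a replicate block, and ran from 342 (without the LZ library of mouse 2) to 2754 (without the MBC library of mouse 4). Leaving out the LZ library of mouse 1, 3 or 4 gave 410, 375 and 519. Terc was -5.91 with a pseudocount of 0.1, -3.81 in the paired fit with the replicate block and -4.09 to -3.29 when each library was left out, values for which no test is read. Rn7sk turned to 0.12 without the LZ library of mouse 3, and to 0.05 without the MBC library of mouse 1 or of mouse 3, within a range of -3.10 to 0.12. Rmrp was 0.34 to 1.61, past the threshold without the MBC library of mouse 4, and 1.83 within mice 1 to 3, a setting that also leaves that library out. Gm26447 was 5.89 to 6.74 when each MBC library was left out and 9.71 with a pseudocount of 0.1. Rn7sk, Rmrp and Rpph1 had no call with or without the block. Over all 10 pairs of members the adjusted permutation p of Rmrp to Rpph1 was 0.143 and 0.0952, and the smaller family of pairs was chosen after seeing the data. Exact tests of 3 against 4 libraries cannot pass 0.05, so those of the ribosomal RNA share and the ratios say nothing about stability. The cause of these shifts was not tested. Depth, which TPM do not hold, limits every value at or near 0.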
